A study of Homo sapiens with 23 samples.

Results

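The genes of glycolysis, glucose and lactate transport and the response to low oxygen were followed in thalamus organoids (ThOs). They were chosen by name as a list of 40 glycolytic enzymes, transporters and targets of hypoxia-inducible factor (HIF), and 34 of the 40 were among the 9497 genes that each RNA-seq library lists. SLC16A3, CA9, EGLN1, EGLN3, ADM and ANKRD37 were not analysed here. The 34 comprise 3 transporters, 17 glycolytic enzymes, 4 regulators of glycolytic flux, HIF1A and 9 other HIF targets.

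The ThOs were grown from H1 human embryonic stem cells, an established line, to examine what c-JUN, a subunit of the transcription factor AP-1, contributes to the thalamus. WT ThOs came from unedited H1 cells, and KO ThOs from H1 cells with c-JUN disrupted by CRISPR/Cas9. OE ThOs carried the same knockout together with c-JUN under a doxycycline-inducible tet-on system, so that the knockout is common to KO and OE. The study induced c-JUN by adding doxycycline to the medium and does not state whether WT and KO ThOs received it. What doxycycline or the inserted system contributed to the OE values was not tested. Each genotype was sampled at day 25 and day 30 with 2 libraries, 12 in all, and 3 organoids were pooled in each library. The study made more than 1 KO clone, and the labels do not say which clone a library came from. The values are normalized expression scores without a known read depth, and the samples were not said to be separate cultures, so p-values measure only the spread between these libraries. At day 25 JUN itself was 139 and 153 in WT, and its KO values were 353 and 196. At day 30 they were 128 and 162 for WT, then 222 and 248 for KO. In OE it was 224 and 212 at day 25 and 362 and 202 at day 30. JUN values of all KO libraries lay above those of WT, so a loss of JUN RNA was not seen in KO. By western blot the study reported no c-JUN protein in its KO lines and induced c-JUN in OE. By RT-qPCR it reported null c-JUN mRNA in KO during other inductions. The RNA scores used here do not measure protein. Against KO, JUN in OE was -0.27 at day 25 (SE 0.323, adjusted p = 0.716, limma) and 0.20 at day 30 (SE 0.323, adjusted p = 0.809, limma), so a rise was not shown in OE either, and KO and OE stand here for the libraries so labelled. Of marker genes, 12 of 12 for neurons, 9 of 13 for neural progenitors and 5 of 12 for thalamus were analysed, while the 6 markers each of pluripotent cells and endothelium were not.

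Glycolysis splits glucose into pyruvate in the cytosol. Glucose enters through facilitative transporters such as SLC2A1 and SLC2A3, hexokinases trap it, and lactate dehydrogenase turns pyruvate into lactate, which leaves through monocarboxylate transporters such as SLC16A1. Pyruvate dehydrogenase kinases such as PDK1 inactivate pyruvate dehydrogenase, which uses pyruvate inside the mitochondria. When oxygen is low, the HIF1A protein escapes degradation, pairs with ARNT and binds the DNA core ACGTG or GCGTG near many of these genes. Neural progenitors are known for high glycolysis and neurons for greater use of oxidative metabolism, and organoids have no blood vessels, so that their interior receives less oxygen.

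Some of these enzymes come in isozyme pairs of which 1 partner is a well-known HIF target. Promoters of 4 members, chosen after their values were seen, are shown as examples: the pair LDHA and LDHB, and HK2 and ALDOC, whose expression values are described further on. Each is the 300 bases from 250 before to 50 after an annotated start, from RefSeq on GRCh38.p14 and written 5′ to 3′ on the gene's strand, and the capitals mark ACGTG or its reverse complement CACGT. LDHA makes the lactate-producing subunit of lactate dehydrogenase (chr11:18394313-18394612, plus strand). LDHB makes the other subunit (chr12:21657793-21658092, minus strand). HK2 is the inducible hexokinase (chr2:74833877-74834176, plus strand), and ALDOC is the aldolase C of brain (chr17:28576846-28577145, minus strand).
LDHA: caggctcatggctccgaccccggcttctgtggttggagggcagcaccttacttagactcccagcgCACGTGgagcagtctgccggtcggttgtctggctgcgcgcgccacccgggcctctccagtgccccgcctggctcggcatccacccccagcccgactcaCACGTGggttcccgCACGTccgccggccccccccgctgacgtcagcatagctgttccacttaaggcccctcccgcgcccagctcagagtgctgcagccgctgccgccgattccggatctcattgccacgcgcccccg
LDHB: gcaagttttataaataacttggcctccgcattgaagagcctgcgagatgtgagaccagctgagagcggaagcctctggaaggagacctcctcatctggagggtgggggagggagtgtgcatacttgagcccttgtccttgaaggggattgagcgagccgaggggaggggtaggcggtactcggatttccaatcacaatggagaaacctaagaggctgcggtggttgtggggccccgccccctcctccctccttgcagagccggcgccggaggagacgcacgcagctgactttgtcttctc
HK2: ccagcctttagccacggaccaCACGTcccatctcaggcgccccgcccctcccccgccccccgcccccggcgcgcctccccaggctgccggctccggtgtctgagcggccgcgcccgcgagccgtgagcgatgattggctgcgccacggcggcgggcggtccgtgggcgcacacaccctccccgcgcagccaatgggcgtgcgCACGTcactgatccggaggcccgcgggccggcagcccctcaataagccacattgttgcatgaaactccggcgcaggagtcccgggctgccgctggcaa
ALDOC: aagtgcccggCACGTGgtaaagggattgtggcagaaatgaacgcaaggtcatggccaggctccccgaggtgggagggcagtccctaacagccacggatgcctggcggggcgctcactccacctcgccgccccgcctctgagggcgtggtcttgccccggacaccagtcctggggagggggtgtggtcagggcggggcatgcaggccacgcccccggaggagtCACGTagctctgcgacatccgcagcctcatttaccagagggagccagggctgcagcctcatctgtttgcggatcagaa
The LDHA window held ACGTG at 3 places, which began 185, 87 and 73 bases before the start, and the LDHB window at 0. The other form of the core, GCGTG, was found at 1 place each in the LDHA, LDHB and HK2 windows and at 2 in that of ALDOC. The HK2 window held ACGTG at 2 places, 229 and 48 bases before the start. That of ALDOC held ACGTG at 2 places, 240 and 28 bases before the start. ACGTG did not set these genes apart, since the windows of ALDOA and GPI held it at 1 place each, that of ALDOA 178 bases before the start, and the window of PGK1 at 3. Matches that overlapped on both strands, as in CACGTG, were counted as 1 place.

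Of the 34 members, 29 had a promoter in the RefSeq table, and 12 of the 29 (41.4%) held ACGTG on either strand. The share was 27.0% for the 7817 promoters of genes in the expression tables and 21.4% for all 35116 promoters. GCGTG was found in 16 of the 29 (55.2%), against 52.0% and 36.5%. The AP-1 motif TGACTCA was found in 1 of the 29, that of ENO2 (3.45%), against 2.39% and 4.95%. The windows of PDK1 and SLC2A1 did not hold the letters ACGTG, which says nothing of sequence outside them.

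At day 25, 7 of the 9 other HIF targets and 1 of the 17 glycolytic enzymes had both KO values below both WT values, where 21.3% of all genes did so, and no member passed the test in KO against WT. Both OE values lay above both KO values for 8 of the 9 and 5 of the 17, where 24.5% of all genes did so. Relative to its mean over the 12 libraries on the log2 scale, the median member stood at -0.37 and -0.13 in WT, -0.55 and -0.26 in KO and -0.04 and 0.23 in OE. At day 30 it stood at 0.26 and 0.39 in WT, 0.39 and -0.39 in KO and 0.22 and 0.34 in OE. The KO libraries of day 30 thus disagreed with each other, 1 of them being level with WT of that day and the other below every other library of day 30. Because these are bulk libraries, fewer cells of a type and less RNA per cell cannot be told apart.

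**Figure D1:**
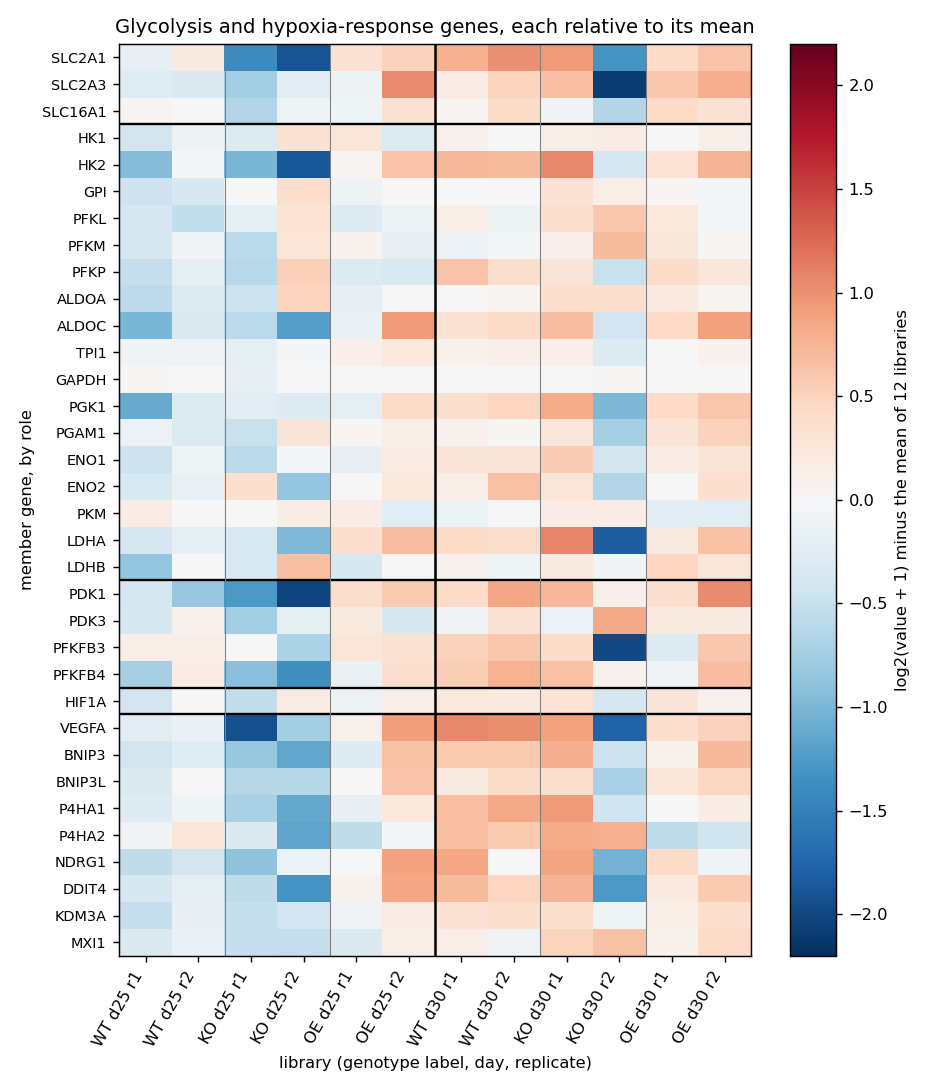
Colours show log2(value + 1) of each of the 34 members (rows, ordered by role, black lines between roles) minus that gene's mean over the 12 libraries (columns, by genotype label, day and replicate). Blue cells, below the mean, are most frequent in the WT and KO libraries of day 25, with 23 to 31 of 34 members, and in KO day 30 replicate 2, with 22, and the median member stood at -0.39 in that library, against 0.39 in KO day 30 replicate 1.

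PDK1, the kinase that inactivates pyruvate dehydrogenase, was the only member that passed the test in any of the 12 contrasts. PDK1 (ENSG00000152256, GRCh38 chromosome 2, 172555373 to 172608669) had values of 52 and 38 in WT, 28 and 16 in KO and 90 and 102 in OE at day 25. At day 30 its values were 92 and 124 in WT, 114 and 74 in KO and 88 and 141 in OE. The groups did not overlap at day 25, with KO lowest and OE highest, and all overlapped at day 30. Against KO, PDK1 rose in OE at day 25 by 2.12 on the log2 scale (SE 0.377, adjusted p = 0.0488, limma), a ratio of means of 4.36, and over both days by 1.20 (SE 0.267, adjusted p = 0.0392, limma). At day 25, 1 of 34 members and 0.274% of all genes were called, at an adjusted p under 0.05 with at least a 2-fold change, and over both days 1 of 34 and 2.22%.

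The PDK1 call rested on small margins. Leaving out a library could end it, and the adjusted p (limma) at day 25 was 0.0742 without KO replicate 2, 0.245 without OE replicate 1 and 0.309 without OE replicate 2, and over 14 alternatives it ran from 0.0205 to 0.309. Over both days it was 0.069 when KO day 25 replicate 2 was left out, and 0.1001 or 0.163 when replicate 1 or replicate 2 of OE day 25 was. It was 0.0989 with KO day 30 replicate 2 left out and 0.186 in the same way for OE day 30 replicate 2, and over 18 alternatives it ran from 0.00859 to 0.186. The fold kept its direction in all these fits, between 1.74 and 2.51 on the log2 scale at day 25. The KO values behind that fold, 28 and 16, lay near 11, the lowest value of every library. With a pseudocount of 5 the adjusted p at day 25 was 0.054 (limma) and PDK1 did not pass. PDK1 in KO against WT at day 25 was -1.03 (SE 0.377, adjusted p = 0.279, limma) and did not pass. Its relative PDK3 had values of 16 and 22 in WT, 12 and 18 in KO and 24 and 16 in OE at day 25, and of 20 and 26, 19 and 38, and 24 and 24 at day 30. PDK3 groups overlapped at both days.

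SLC2A1, the main glucose transporter of the developing brain and its vessels, showed the lowest KO value relative to WT of all members at day 25. SLC2A1 (ENSG00000117394, GRCh38 chromosome 1, 42925353 to 42958893) was at 370 and 484 in WT, 158 and 112 in KO and 527 and 598 in OE. At day 30 it was at 720 and 849 in WT, 804 and 168 in KO and 562 and 649 in OE. The 3 groups of day 25 did not overlap, while at day 30 KO replicate 1 lay within the WT range and KO replicate 2 far below every other library of that day. The study's discussion lists SLC2A1 among up-regulated genes of its ThO RNA-seq without naming the day, whereas KO lay below WT at day 25 here. The day 25 log2 fold change was -1.66 in KO against WT (SE 0.522, adjusted p = 0.231, limma) and 2.07 in OE against KO (SE 0.522, adjusted p = 0.0868, limma), so neither passed. Without both KO replicate 2 libraries, a setting chosen after seeing the data, these were -1.42 and 1.82. The KO group of each day then held 1 library, whose spread was taken from the other groups. Whether a member passed is therefore not read from that setting, which gave the lowest adjusted p of both ranges below. Over 14 alternatives the adjusted p ran from 0.0136 to 0.648 and from 0.00422 to 0.431.

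SLC2A3, the transporter typical of neurons, was at 70 and 67 in WT, 50 and 71 in KO and 78 and 175 in OE at day 25. At day 30 it was at 96 and 119, 134 and 19, and 127 and 148. WT and KO overlapped at both days, and the value of 19 in KO replicate 2 was the lowest of all 12. SLC16A1, which exports lactate, was the only member with all 4 KO values of both days below all 4 WT values, a pattern shown by 3.14% of all genes, while VEGFA and PFKFB3 also had KO below WT within each day. Its WT values were 172 and 164 at day 25, with 105 and 154 for KO. At day 30 WT had 170 and 218, with 158 and 106 for KO. The mean KO effect on SLC16A1 was -0.48 (SE 0.202, adjusted p = 0.293, limma) and did not pass.

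**Figure D2:**
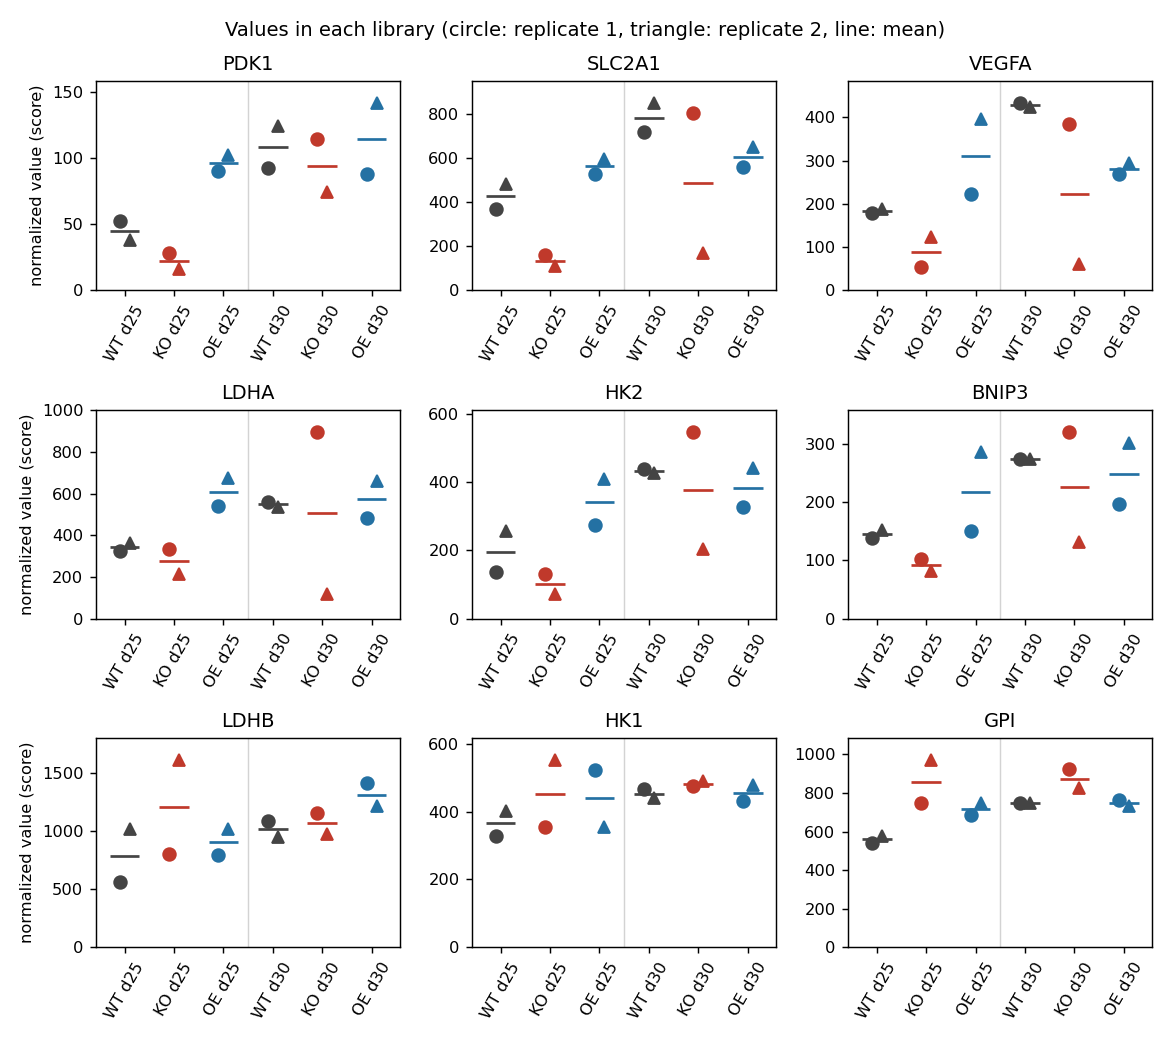
Normalized value of 9 members in each library (circle, replicate 1; triangle, replicate 2; line, group mean) by genotype label and day. PDK1, SLC2A1, VEGFA, LDHA, HK2 and BNIP3 had their lowest day 25 value in a KO library, whereas LDHB, HK1 and GPI had their highest day 25 value in KO replicate 2.

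HK2 and the flux regulators PFKFB3 and PFKFB4 also had their lowest group mean in KO and their highest in OE at day 25. HK2 was at 136 and 256 in WT, 130 and 72 in KO and 275 and 409 in OE, and at day 30 at 438 and 428, 547 and 204, and 326 and 442. Both KO values lay below both WT values at day 25, by a narrow margin in replicate 1 only. At day 30 KO held both the highest and the lowest HK2 value of the 6. HK2 in OE against KO at day 25 was 1.78 (SE 0.459, adjusted p = 0.0907, limma). PFKFB3 and PFKFB4 make the fructose 2,6-bisphosphate that activates phosphofructokinase. PFKFB4 was 34 and 64 in WT, 30 and 22 in KO and 52 and 74 in OE at day 25, with 1.24 in OE against KO (SE 0.403, adjusted p = 0.145, limma). PFKFB3 was 144 and 143, 129 and 80, and 156 and 164 at day 25, and 184 and 197, 172 and 32, and 105 and 197 at day 30. None of these passed the test.

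Among the other HIF targets, VEGFA, the vessel growth factor, was at 178 and 188 in WT, 54 and 123 in KO and 222 and 397 in OE at day 25. At day 30 it was at 432 and 424, 385 and 60, and 268 and 295. Both KO values were below both WT values at each day, at day 30 by a wide margin in replicate 2 only. VEGFA in KO against WT was -1.16 at day 25 (SE 0.664, adjusted p = 0.477, limma) and -1.48 at day 30 (SE 0.664, adjusted p = 0.643, limma), and in OE against KO 1.85 at day 25 (SE 0.664, adjusted p = 0.178, limma). Without both KO replicate 2 libraries the day 25 values of VEGFA were -1.74 and 2.44. The KO group of day 25 then held only replicate 1, at 54, so whether VEGFA passed is not read from that setting. BNIP3 and BNIP3L, receptors for the removal of mitochondria, showed the same order of group means at day 25. BNIP3 was at 138 and 152 in WT, 102 and 82 in KO and 150 and 285 in OE. BNIP3L was at 382 and 470, 308 and 306, and 480 and 732.

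DDIT4, an inhibitor of mTORC1 signalling, was at 214 and 240 in WT, 186 and 110 in KO and 294 and 496 in OE at day 25. The prolyl hydroxylases of collagen, P4HA1 and P4HA2, parted in OE. P4HA1 was at 163 and 186, 120 and 90, and 176 and 234 at day 25, while P4HA2 was at 64 and 82, 54 and 30, and 46 and 67. At day 30 P4HA2 was at 108 and 102 in WT, 120 and 118 in KO and 46 and 50 in OE, so that OE lay below both other groups without overlap. P4HA2 in OE at day 30 was -1.29 against KO (SE 0.332, adjusted p = 0.284, limma) and -1.11 against WT (SE 0.332, adjusted p = 0.775, limma), the lowest of all members in both, and neither passed. In KO against WT at day 25 the stress-response gene NDRG1, the histone demethylase KDM3A and the MYC antagonist MXI1 had narrower differences, between -0.29 and -0.03 on the log2 scale. NDRG1 was at 34 and 38 in WT, 27 and 46 in KO and 51 and 94 in OE. KDM3A was at 206 and 262, 209 and 222, and 280 and 337, so that OE lay above both other groups for NDRG1 and KDM3A. MXI1 was at 74 and 84, 65 and 64, and 74 and 101, with OE overlapping WT.

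HIF1A, whose protein rather than its transcript is set by oxygen, did not order the groups. Its values at day 25 were 335 and 442 in WT, 308 and 510 in KO and 415 and 486 in OE, and the groups overlapped. At day 30 they were 528 and 518, 553 and 344, and 547 and 480. The KO effect on HIF1A was 0.04 (SE 0.28, adjusted p = 0.965, limma) at day 25 and -0.26 (SE 0.28, adjusted p = 0.76, limma) at day 30.

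Over all 34 members at day 25, both KO values lay below both WT values for 13, where 21.3% of all genes did so, and above them for 3 (GPI, PFKL and PGK1), against 19.3%. The 13 were 7 of the 9 other HIF targets, 3 of the 4 flux regulators, 2 of the 3 transporters and 1 of the 17 glycolytic enzymes, HK2. In KO against WT at day 25, 0 members were called (0.0105% of all genes), and at an unadjusted p under 0.05 (limma) 2 members were higher and 3 lower, where 6.03% and 7.39% of all genes were. The 2 were GPI, with 0.60 (SE 0.166, adjusted p = 0.199, limma), and PFKL, with 0.50, and the 3 were SLC2A1, PDK1 and P4HA2. The median log2 fold change was -0.15 over the members and -0.02 over all genes.

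In OE both values lay above both KO values for 18 members at day 25, against 24.5% of all genes, and below them for 0, against 22.4%. These 18 included 8 of the 9 other HIF targets and 5 of the 17 enzymes, HK2, ALDOC, TPI1, PGK1 and LDHA. At an unadjusted p under 0.05, 11 members were higher and 0 lower, where 9.31% and 8.5% of all genes were, and 8 of the 11 also reached 2-fold, where 4.25% of all genes did so upwards. The median was 0.44 over the members and 0.03 over all genes. The comparisons of KO with WT and of OE with KO share the KO libraries, so that their values are not independent of each other. Against WT, OE was higher without overlap for 19 members and lower for 0 at day 25, where 19.8% and 19.6% of all genes were, and 0 members and 0.0% of genes were called. At an unadjusted p under 0.05 (limma) 2 members were higher there and 0 lower, where 1.9% and 2.28% of all genes were, and the 2 were PDK1, with 1.09, and ALDOC, with 1.06.

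**Figure D3:**
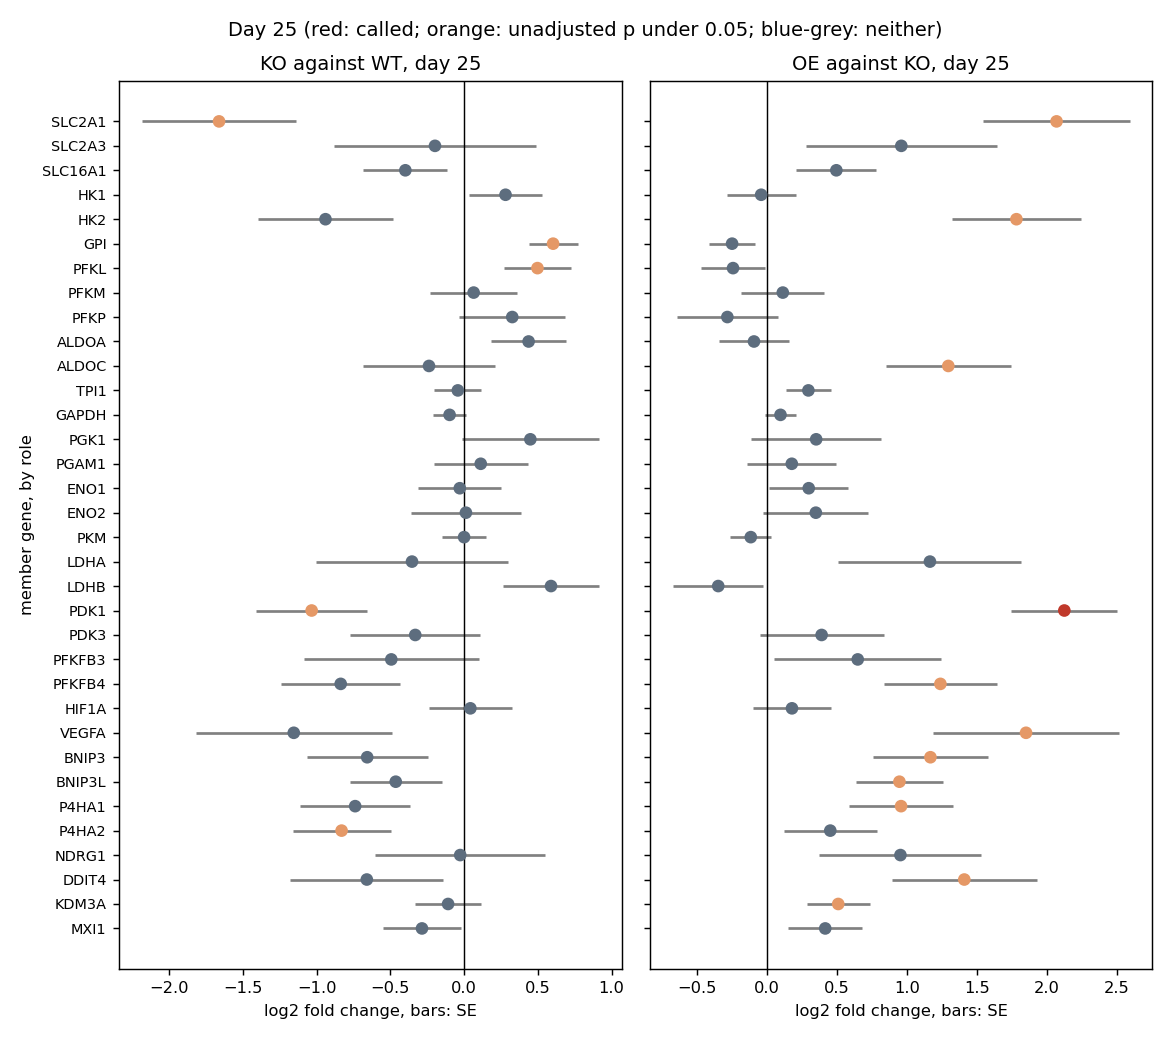
Log2 fold change with its SE (bars) for each of the 34 members at day 25, KO against WT at left and OE against KO at right, from the fit to all 12 libraries. PDK1 in OE against KO, at 2.12, is the only red (called) point, and the 11 members with an unadjusted p under 0.05 at right, PDK1 among them, all lie above 0.

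Markers of cycling cells were also lowest in KO and highest in OE at day 25. The summed value of 11 of 12 cycling-cell markers at day 25 was 2835 to 3126 in WT, 1723 to 2042 in KO and 3397 to 3595 in OE. Of these markers, BUB1, CCNA2 and MKI67 passed the test in OE against KO over both days, at log2 fold changes of 1.07, 1.36 and 1.55 with adjusted p of 0.0441, 0.029 and 0.032 (limma), where 2.22% of all genes were called. Summed values of 9 of 13 progenitor markers at day 25 were 7878 to 14130 in WT, 3986 to 6457 in KO and 6869 to 9022 in OE, but VIM alone was at 9910, the top of the scale, and 3452 in WT. Without VIM the sums of the other 8 were 4220 to 4426 in WT, 1316 to 3001 in KO and 3417 to 5570 in OE, so that KO was lowest and WT and OE overlapped. Those of 12 neuron markers were 7712 to 8909, 8983 to 11977 and 9642 to 10005, of which MAP2 alone made up 2674 or 3456 in each library. SOX2, a progenitor factor, was called in OE against KO over both days, at 1.27 (adjusted p = 0.0429, limma). PAX6, of the same list, did not follow it. PAX6 was at 570 and 255 in KO and 410 and 476 in OE at day 25. At day 30 it was at 572 and 382 in KO and 293 and 328 in OE. Of 14 roof plate and choroid plexus markers 6 were called in the same comparison, RSPO2 higher, at 3.25 (adjusted p = 0.00982, limma), and CLDN1, LMX1B, MSX1, KRT8 and KRT18 lower, from -3.20 to -1.05. At day 25 RSPO2 was called higher and CLDN1 and LMX1B lower, as was the neuron marker GAP43, at -1.24 (adjusted p = 0.0439, limma), where 0.274% of all genes were called. Neuron markers did not all fall, since ELAVL3 was at 150 and 152 in KO and 274 and 382 in OE at day 25. The part of cell composition in the differences of the glycolysis and hypoxia genes was not tested. Summed values of the other marker lists at day 25, in WT, KO and OE in turn, were 494 to 628, 496 to 842 and 518 to 1175 for 5 thalamus markers, 3609 to 4486, 3814 to 7318 and 3434 to 7001 for 14 of 15 roof plate and choroid plexus markers, and 418 to 502, 504 to 1120 and 194 to 341 for 3 of 9 mesenchyme markers. Much of the roof plate and choroid plexus sum was TTR, at 922 and 1878 in WT, 541 and 3453 in KO and 3452 and 1081 in OE.

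In the main chain from glucose to lactate, the isozymes of 1 step often separated from each other within a library. LDHA and LDHB, chosen for display after their values were seen, make the subunits of lactate dehydrogenase. LDHA was at 326 and 364 in WT, 336 and 216 in KO and 542 and 676 in OE at day 25, and at 558 and 538, 896 and 120, and 484 and 660 at day 30. LDHB was at 564 and 1014, 806 and 1608, and 790 and 1014 at day 25, and at 1084 and 948, 1159 and 971, and 1412 and 1216 at day 30. LDHA was lowest of all in KO day 30 replicate 2, and LDHB highest of all in KO day 25 replicate 2.

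Relative to its mean over the 12 libraries, the log2 ratio of LDHA to LDHB was -1.63 in KO day 25 replicate 2 and -1.75 in KO day 30 replicate 2, and between -0.28 and 0.89 in the other 10 libraries. The ratio of HK2 to HK1, the housekeeping hexokinase, was -2.19 and -0.54 in those libraries, and KO day 25 replicate 1, at -0.72, and WT day 25 replicate 1, at -0.55, lay below the second of these. HK1 values were 330 and 403 in WT, 356 and 552 in KO and 525 and 354 in OE at day 25, and 466 and 442, 476 and 491, and 432 and 478 at day 30. HK1 was highest of all in KO day 25 replicate 2, where HK2 was lowest of all. In WT day 25 replicate 1, however, HK1 was at its lowest, 330, and HK2 was also low, at 136. The ratio of ALDOC to ALDOA, the widespread aldolase, was -1.71 and -0.77 in the same libraries, its lowest values of the 12. ALDOC was at 58 and 94, 78 and 50, and 106 and 226 at day 25, and ALDOA at 702 and 850, 747 and 1466, and 924 and 1044. ENO2 to ENO1, the neuronal and the widespread enolase, was -0.83 in KO day 25 replicate 2 but -0.25 in KO day 30 replicate 2 and 0.96 in KO day 25 replicate 1.

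**Figure D4:**
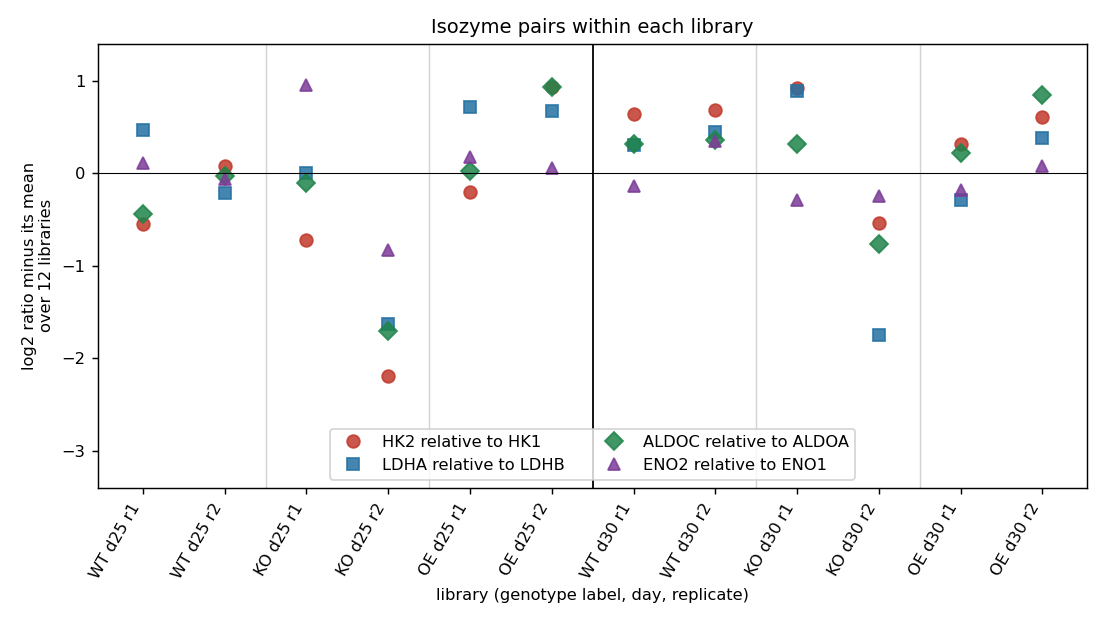
Log2 ratio of 4 isozyme pairs in each library, minus the pair's mean over the 12 libraries (y axis). For HK2 relative to HK1, LDHA relative to LDHB and ALDOC relative to ALDOA the 2 KO replicate 2 libraries lie below 0, down to -2.19 for the hexokinases in KO day 25 replicate 2.

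GPI, which makes fructose 6-phosphate, was at 541 and 578 in WT, 746 and 969 in KO and 687 and 746 in OE at day 25, with WT lowest and not overlapping either group. PFKL, the liver-type phosphofructokinase, was at 228 and 202, 255 and 361, and 242 and 272. PFKM, the muscle type, was at 212 and 265, 184 and 334, and 293 and 246, and PFKP, the platelet type, at 124 and 157, 118 and 260, and 146 and 142. The phosphofructokinase values of WT and KO overlapped for PFKM and PFKP and not for PFKL. PGK1, the first ATP-making step, was at 248 and 437, 458 and 442, and 460 and 718 at day 25, and at 686 and 746, 944 and 270, and 731 and 820 at day 30. PGK1 was therefore above WT in KO at day 25 and at its lowest day 30 value in KO replicate 2. TPI1 stayed between 872 and 1259 over all 12 libraries, PGAM1 between 222 and 525, ENO1 between 946 and 2090 and ENO2 between 450 and 1259.

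GAPDH and PKM varied least by the ratio of highest to lowest value, and their values partly reflect the scale. By SD on the log2 scale TPI1, at 0.151, lay below PKM, at 0.162. GAPDH read 2396 in 9 of 12 libraries and between 2092 and 2400 in all. PKM, the last enzyme before pyruvate, took values from 1606 to 2094, with 2092 or 2094 in 5 libraries. Such repeats are shared steps of the normalized scale on which highly expressed genes sit, so small differences of these 2 genes cannot be read. RefSeq also lists 65 pseudogenes named after GAPDH, 46 after BNIP3 and 13 after PGAM1, with which reads could have been shared, and 4 each after TPI1 and ENO1, 5 after PKM and 6 after LDHA.

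In WT ThOs most members had higher values at day 30 than at day 25. Both day 30 values lay above both day 25 values for 28 of 34 members, where 21.6% of all genes did so, and below them for 0, against 19.7%. The 28 held 9 of 9 other HIF targets and 13 of 17 enzymes, and PDK3, PFKM, GAPDH, PKM, LDHB and SLC16A1 overlapped. VEGFA had a day 30 to day 25 ratio of WT means of 2.34, PDK1 of 2.4, HK2 of 2.21 and SLC2A1 of 1.84. The median log2 change in WT was 0.54 over the members and 0.01 over all genes, a comparison within WT that was added after seeing the data. Of the members, 10 had an unadjusted p under 0.05 upwards in WT, where 2.19% of all genes did, and 0 were called, as were 0 of all genes (limma).

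In OE both day 30 values lay above both day 25 values for 6 members, against 18.3% of all genes, and below them for 1 (TPI1), against 19.4%, and the median change was 0.19. For KO it was 12 members, against 15.6%, and 0, against 13.7%, with a median of 0.40 that includes the split day 30 pair. At an unadjusted p under 0.05 (limma), 0 members were higher in OE and 10 in KO, where 0.727% and 7.4% of all genes were. Averaged over genotypes, 14 members were higher at an unadjusted p under 0.05 and 0 lower, where 5.76% and 5.54% of all genes were, and 0 members and 0.0% of genes were called (limma). The largest was PDK1 at 1.18 (SE 0.218, adjusted p = 0.193, limma), followed by HK2 at 1.05 (SE 0.265, adjusted p = 0.227, limma). PDK1 was at 1.07 without KO day 30 replicate 1, and SLC2A1 was at 1.19 without KO day 30 replicate 2. Without both KO replicate 2 libraries PDK1 was at 1.15 and SLC2A1 at 1.11. These fits left 1 library in a KO group, so whether a member passed is not read from them.

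At day 30 the KO group rested on 2 unlike libraries. Replicate 2 was at least 2-fold below replicate 1 for 14 members, where 11.8% of all genes were, and at least 2-fold above it for 0, where 9.75% were. These 14 were SLC2A1, SLC2A3, HK2, ALDOC, PGK1, PGAM1, LDHA, PFKFB3, VEGFA, BNIP3, BNIP3L, P4HA1, NDRG1 and DDIT4. LDHA differed most, by -2.89 on the log2 scale, and PDK3 lay farthest the other way, at 0.96. In the WT and OE pairs of day 30 no member differed by 2-fold, where 0.495% of all genes were so much higher and 1.25% lower in replicate 2 of WT, and 0.99% and 2.24% in replicate 2 of OE. The KO pair of day 25 also differed more over all genes than the WT and OE pairs of that day. Its replicate 2 was at least 2-fold higher for 2 members and lower for 1, where 9.1% and 8.29% of all genes were. Those shares of all genes were 2.3% and 2.16% in WT and 0.937% and 1.21% in OE at day 25. The cycling-cell markers summed to 1917 in KO day 30 replicate 2 and 2512 in replicate 1, against 2224 to 2598 in WT and 3299 to 3670 in OE, and their part in the split was not tested.

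**Figure D5:**
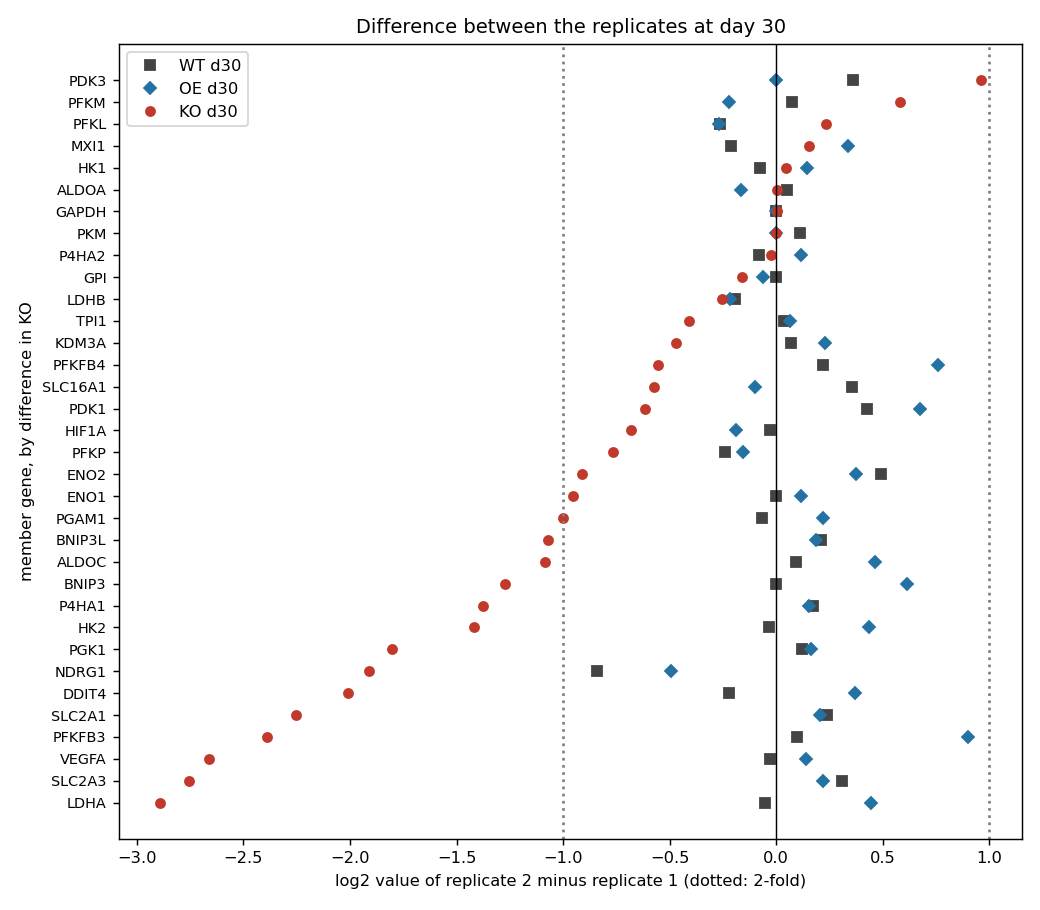
Log2 value of replicate 2 minus replicate 1 at day 30 (x axis) for each member in WT, OE and KO, with members ordered by the KO difference and dotted lines at 2-fold. KO runs from -2.89 (LDHA) to 0.96 (PDK3), while the WT and OE points stay within the dotted lines.

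KO replicate 2 had the lowest value of the 6 day 30 libraries for 22 members, against 34.4% of all genes, and the highest for 7 (HK1, PFKL, PFKM, ALDOA, GAPDH, PDK3 and MXI1), against 35.7%. KO replicate 1 had the highest for 12, against 9.92%. Set against the WT mean of day 30, replicate 1 was 2-fold off for 0 members, with a median of 0.19, and replicate 2 was at least 2-fold lower for 13 members, where 11.5% of all genes were, with a median of -0.73. For KO against WT at day 30, 0 members and 0.0% of genes were called (limma), and 0 members were higher and 2 lower, PFKFB3 and VEGFA, at an unadjusted p under 0.05, where 3.43% and 3.93% of all genes were. PFKFB3 was -1.34 (SE 0.595, adjusted p = 0.643, limma). Non-overlapping values at day 30 were found for 8 members above WT, against 16.5%, and 4 below it, against 17.4%.

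Leaving out either KO library of day 30 changed the result. Without replicate 1, KO against WT at day 30 was -2.21 for SLC2A1, -2.18 for LDHA, -2.81 for VEGFA and -2.54 for PFKFB3. Without replicate 2, SLC2A1 was at 0.04, LDHA at 0.71 and PDK1 at 0.09. The lone remaining library was assumed in these fits to vary like the other groups, so whether a member passed is not read from them. Over 14 alternatives the log2 fold change ran from -2.21 to 0.04 for SLC2A1 and from -2.18 to 0.71 for LDHA. It ran from -2.81 to -0.15 for VEGFA and from -2.54 to -0.15 for PFKFB3.

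For OE against KO at day 30, 0 members were called, where 0.0842% of genes were, with 1 member higher and 2 lower at an unadjusted p under 0.05 (limma), where 5.9% and 5.01% of all genes were. These were SLC16A1 at 0.72, P4HA2 at -1.29 and PKM at -0.38, a small difference that cannot be read on the steps of this scale. OE values lay above KO without overlap for 3 members, against 18.7%, and below it for 6, against 18.5%. Without KO day 30 replicate 1, SLC2A1 in OE against KO at day 30 was at 1.84, and without KO day 30 replicate 2 it was at -0.41. Each of these fits left 1 KO library at day 30, so whether a member passed is not read from them. OE against WT at day 30 had 0 members called, where 0.0316% of genes were, and at an unadjusted p under 0.05 (limma) 0 members were higher and 1, P4HA2, lower, where 1.5% and 2.58% of all genes were. In that comparison 6 members lay above WT without overlap, against 21.0%, and 5 below it, against 21.8%.

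Averaged over the days, KO against WT had 0 members called, where 0.0211% of genes were, with 2 members higher and 5 lower at an unadjusted p under 0.05 (limma), where 7.01% and 8.16% of all genes were. SLC2A1 was lowest, at -1.37 (SE 0.369, adjusted p = 0.189, limma). Without KO day 30 replicate 1 it was -1.94, a fit that left 1 KO library at day 30, so whether a member passed is not read from it. In OE against KO over both days, 10 members were higher and 1 lower at an unadjusted p under 0.05, where 11.5% and 10.7% of all genes were. SLC2A1 was at 1.39 (SE 0.369, adjusted p = 0.0658, limma), VEGFA at 1.36, SLC2A3 at 1.19 and DDIT4 at 1.03, and none of these passed. OE against WT over both days had 0 members called, against 0.158% of genes, and at an unadjusted p under 0.05 (limma) 0 members were higher and 1, P4HA2 at -0.75, lower, where 3.53% and 4.69% of all genes were.

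The effect of the genotype was also compared between the days. The difference in the OE against KO effect, day 30 minus day 25, was -1.85 for PDK1 (SE 0.534, adjusted p = 0.848, limma), -1.60 for HK2, -1.31 for PFKFB4 and -1.75 for P4HA2, the 4 members with an unadjusted p under 0.05, all downwards. No member passed, nor did any gene (0.0%), and 3.2% of all genes had a downward change at an unadjusted p under 0.05. For the KO effect no member passed, 0.0% of genes did, and 0 members and 5.63% of genes had an unadjusted p under 0.05 (limma). That a genotype effect differed between day 25 and day 30 was thus not shown for any member.

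Neighbouring pathways were counted in the same fit, and their counts are to be read against all genes. At an unadjusted p under 0.05 at day 25, 6.03% of all genes were higher and 7.39% lower in KO against WT, and 9.31% higher and 8.5% lower in OE against KO, while 2.22% were called in OE against KO over both days. Of 46 other HIF targets outside the member list, 26 were analysed, and in KO against WT at day 25 0 were called, 0 were higher and 7 lower at an unadjusted p under 0.05 (limma), with a median of -0.39. The adenylate kinase AK4 was at 152 and 199 in WT, 78 and 75 in KO and 178 and 274 in OE at day 25, and at 216 and 220, 220 and 100, and 260 and 226 at day 30. AK4 rose in OE against KO over both days by 1.11 on the log2 scale (SE 0.245, adjusted p = 0.038, limma), the only one of the 26 called in that comparison. The 26 had a median of 0.44 in OE against KO at day 25, with 4 higher and 1 lower at an unadjusted p under 0.05.

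Of 25 genes of the tricarboxylic acid cycle, 22 were analysed. In KO against WT at day 25 their median was 0.16, with 3 higher and 0 lower at an unadjusted p under 0.05, and in OE against KO it was -0.09, with 0 higher and 3 lower. The 10 of 13 pentose phosphate genes had medians of 0.29 and -0.27, with 1 higher and 0 lower, and then 0 higher and 2 lower. The 12 of 13 genes of mitochondrial pyruvate entry and of the pyruvate dehydrogenase complex, which PDK1 inactivates, had medians of 0.16 and -0.16, with 0 in either direction and then 0 higher and 1 lower. The 20 of 38 other glycolysis and glycogen genes had 0.20 and -0.35, with 2 higher and 0 lower, then 0 higher and 1 lower. Those 4 lists had 0 genes called in both comparisons (limma).

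The 19 of 20 regulators of the HIF pathway had medians of -0.01 in KO against WT and 0.08 in OE against KO at day 25, with 2 higher and 1 lower, and then 2 higher and 2 lower, at an unadjusted p under 0.05. The 16 of 22 genes of the amino acid and endoplasmic reticulum stress response had -0.18 and 0.23, with 0 higher and 3 lower, and then 4 higher and 0 lower. Both lists had 0 genes called in these comparisons (limma).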

How the data were processed

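RNA-seq was performed on ThOs derived from H1 cells, and 3 organoids were pooled per library. The authors deposited 1 table per library that gives every gene's Ensembl identifier, symbol and position beside 1 normalized expression score, rounded to whole numbers. The submitters' processing notes name bcl2fastq, Bowtie2, RSEM and hg19 without roles, while the deposited positions of all 34 members overlap RefSeq GRCh38.p14. The normalization and the filter on low genes are not given in the sources used here. Every library had the same minimum (11), median (106) and maximum (9910), so a shift of all genes cannot be seen, and the depth is unknown, so no counting interval was given. The 11 ATAC-seq and CUT&Tag samples were not used here.

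The scores, as log2(value + 1), were fitted with limma 3.58.1 (R 4.3.3) in 1 model of 6 group means with 12 libraries, an intensity trend and two-sided p-values adjusted by Benjamini-Hochberg over all 9497 genes of a contrast. A filter of at least 1 in at least 2 libraries removed 0 genes. Calls required a 2-fold change and an adjusted p under 0.05, but no fold limit for differences between days. Fold changes are on this log2 scale and understate those of low genes. Libraries do not overlap where both values of 1 group exceed both of the other. Of these steps, only the limma fit was tested on simulated data. That was done for KO against WT at day 25, and for OE against KO at day 25 and over both days. Alternatives were other pseudocounts, filters and normalizations, only the libraries compared, the replicate block, library weights, other thresholds and each library left out. Members and lists were chosen with earlier results of these data known. Full values were given for PDK1, SLC2A1, called members and their isozyme relatives, and other members were named where they were extreme, or reached 2-fold at an unadjusted p under 0.05, or to account for the list. Promoters came from RefSeq, 1 start per gene.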

Additional observations from a re-analysis of the deposited data

How the results depend on the processing

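The median log2 fold changes of the members stayed within the replicate spread in 180 of 192 recomputed values, and the 12 that moved all left out KO libraries. Counts of called members stayed within 1.5 times in 179 of 217 cases. For OE against KO at day 25, where 1 member was called, the count was 0 with a pseudocount of 5, with quantile normalization, with only the libraries compared and with library weights, 0 to 1 with each library left out, and 4 without both KO replicate 2 libraries. Over both days, where 1 was called, it was 0 with only the libraries compared and with library weights, 0 to 12 with each library left out and 0 without both KO replicate 2 libraries. With each library left out, the count was 0 to 9 for KO against WT at day 30, 0 to 7 over both days, 0 to 10 for OE against KO at day 30, 0 to 1 for day 30 against day 25 and 0 to 1 for the change of the KO effect between days. Library weights gave 1 for OE against WT at day 30. Leaving out both KO replicate 2 libraries, a setting added after seeing the data, gave 2 for KO against WT at day 25 and 4 for day 30 against day 25. An unadjusted p under 0.05 with at least 2-fold gave 2 in each KO against WT comparison, 8, 1 and 5 for OE against KO, 2 and 1 for OE against WT at day 25 and day 30, 2 for day 30 against day 25 and 4 for the change of the OE against KO effect, while it took 0.411% to 8.57% of all genes over the 12 contrasts. A group left with 1 library was assumed in these fits to vary like the other groups, so whether a member passed is not read from counts with libraries left out. Apart from the fewer libraries or the looser threshold that define these settings, the cause was not tested.

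A pairing of the samples by replicate number was not shown, as 1 of 15 pairs of groups had a correlation of same-numbered deviations over 0.1 (range -0.21 to 0.26). Whether same-numbered libraries shared a culture or clone was not tested. With the replicate block, 0 members were called in OE against KO at day 25 (PDK1 adjusted p = 0.0818, limma) and 0 over both days (adjusted p = 0.0559, limma), and the block changed no other call of a member.

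Among the gene values recomputed, directions reversed only where libraries of day 30 were left out, and each range below runs over the libraries left out in turn. KO against WT at day 30 ran from -0.52 to 0.093 for PDK1, from -2.21 to 0.0403 for SLC2A1 and from -2.18 to 0.71 for LDHA, and over both days from -1.27 to 0.18 for LDHA. OE against KO at day 30 ran from -0.0614 to 0.61 for PDK1, from -0.41 to 1.84 for SLC2A1, from -0.45 to 2.21 for VEGFA and from -0.66 to 2.23 for LDHA. The low end of PDK1 came without OE day 30 replicate 2, and the other reversals without KO day 30 replicate 2. Without both KO replicate 2 libraries, KO against WT at day 30 was 0.093 for PDK1, 0.0403 for SLC2A1 and 0.71 for LDHA, OE against KO at day 30 was -0.0327 for PDK1, -0.41 for SLC2A1, -0.45 for VEGFA and -0.66 for LDHA, and KO against WT over both days was 0.34 for LDHA. With 2 libraries a group and an unknown depth, a member that did not pass is not shown to be equal between groups.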
